A study of Mus musculus with 24 samples.

Results

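The Snhg genes and Gas5 are long non-coding genes, most of which carry small nucleolar RNAs (snoRNAs) inside them. They were followed in RNA from extracellular vesicles of the mouse cauda epididymis. Members were all genes whose GENCODE vM21 name starts with Snhg or is Gas5. This takes in Snhg7os, which has 0 snoRNA entries inside it and is a member by name only. That release names 16 such genes on GRCm38, and 13 of them had entries in the deposited lncRNA and otherRNA tables, of 14043 genes in those tables and 120028 features in all 7 tables. The reads of their 104 transcripts (43 in the lncRNA table, 61 in the otherRNA table) were summed per gene. Snhg5, Snhg11 and Snhg15 were not analysed here as hosts.

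Each of the 4 groups had 6 libraries from male C57BL/6J mice aged 7 to 8 weeks that carried an osmotic pump for 6 weeks. The pumps gave DBP (dibutyl phthalate, a plasticiser) at 2.5 mg/kg/day, DEHP (di(2-ethylhexyl) phthalate, another plasticiser) at 2.5 mg/kg/day, a mixture with 2.5 mg/kg/day of each, or, in controls, the vehicle, 50% DMSO. After sperm had been pelleted from the cauda fluid, vesicle RNA was isolated with a membrane-affinity kit and made into small RNA libraries. Libraries 1 to 3 of every group were run on lane 6 and libraries 4 to 6 on lane 7. Totals over the 7 tables ran from 8.31 to 15.2 M reads a library (M, 1000000 reads), and reads per M (RPM) below refer to these totals. In vesicle RNA, fewer vesicles of a kind and less RNA per vesicle cannot be told apart.

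A snoRNA host gene is transcribed and spliced like other genes, and its snoRNAs are trimmed out of the removed introns. Box C/D snoRNAs guide 2′-O-methylation and box H/ACA snoRNAs guide pseudouridylation of ribosomal and other RNAs. The spliced host RNA has few conserved exon sequences and is often decayed in the cytoplasm. Gas5 was named for its accumulation in growth-arrested mouse cells, and in human cells its spliced RNA binds the glucocorticoid receptor. Snhg14 is the imprinted, paternally expressed transcript across the Snord115 and Snord116 clusters that runs antisense to Ube3a.

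The members' reads lay mostly on a few transcripts that hold whole snoRNAs. Well-read snoRNAs inside Snhg1, Gas5, Snhg12, Snhg18 and Snhg3 are shown first. Snhg18 and Snhg3 themselves had 0% of their reads on such transcripts, and Snhg12 had 342 reads in all. The sequences are those of GENCODE vM21 transcripts on GRCm38, 5′ to 3′, with capitals for the C box motif (TGATGA, searched within the first 30 bases), the D box motif (CTGA, within the last 20 bases) or, in Snora73b, the ACA motif (within the last 8 bases), all on the transcribed strand only. Of 1507 snoRNA transcripts of the release, 20.7% held both TGATGA and CTGA in these windows, and 46.8% held ACA. Snord22 lies in Snhg1 (chr19:8725866-8725991, plus strand), Snord80 and Gm22489 in Gas5 (chr1:161037604-161037680 and chr1:161035850-161035911, plus strand), Snord99 in Snhg12 (chr4:132310691-132310764, plus strand), Snord123 in Snhg18 (chr15:32241853-32241923, minus strand) and Snora73b in Snhg3 (chr4:132352322-132352526, minus strand).
Snord22: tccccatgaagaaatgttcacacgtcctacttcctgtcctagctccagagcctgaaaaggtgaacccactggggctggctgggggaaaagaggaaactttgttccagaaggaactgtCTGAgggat
Snord80: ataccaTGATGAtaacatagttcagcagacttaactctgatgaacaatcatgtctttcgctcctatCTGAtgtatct
Gm22489: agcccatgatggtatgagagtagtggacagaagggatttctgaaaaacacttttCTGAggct
Snord99: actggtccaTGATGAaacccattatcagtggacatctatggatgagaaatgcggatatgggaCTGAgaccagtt
Snord123: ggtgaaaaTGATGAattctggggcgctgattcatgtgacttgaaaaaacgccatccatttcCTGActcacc
Snora73b: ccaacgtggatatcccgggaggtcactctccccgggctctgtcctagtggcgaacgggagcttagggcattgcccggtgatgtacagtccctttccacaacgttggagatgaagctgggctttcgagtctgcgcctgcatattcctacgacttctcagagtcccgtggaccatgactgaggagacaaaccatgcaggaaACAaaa

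Members took 47404 reads over the 24 libraries, 0.0169% of all reads. The otherRNA table held 94.2% of them. Transcripts whose exons contain at least 1 whole annotated snoRNA, 42 of the 104, took 72.3%. Most of their reads lay on transcripts annotated as retained introns, in which intron sequence with its snoRNA was not removed. This relation differed between the 2 tables. In the otherRNA table, 31 transcripts with a whole snoRNA had 991 reads per kb of transcript (33482 reads), and 30 without had 297 (11174 reads). In the lncRNA table, 11 transcripts with a whole snoRNA had 55.3 reads per kb (788 reads), and 32 without had 98.5 (1960 reads). Transcripts without include some that overlap part of a snoRNA, such as the Snhg3 transcript ENSMUST00000141090.7 of the otherRNA table with 4073 reads. Because the otherRNA class does not appear in the stated mapping order, how a read that matches a snoRNA, its host transcript and a transcript of another class was assigned is unknown here.

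**Figure D1:**
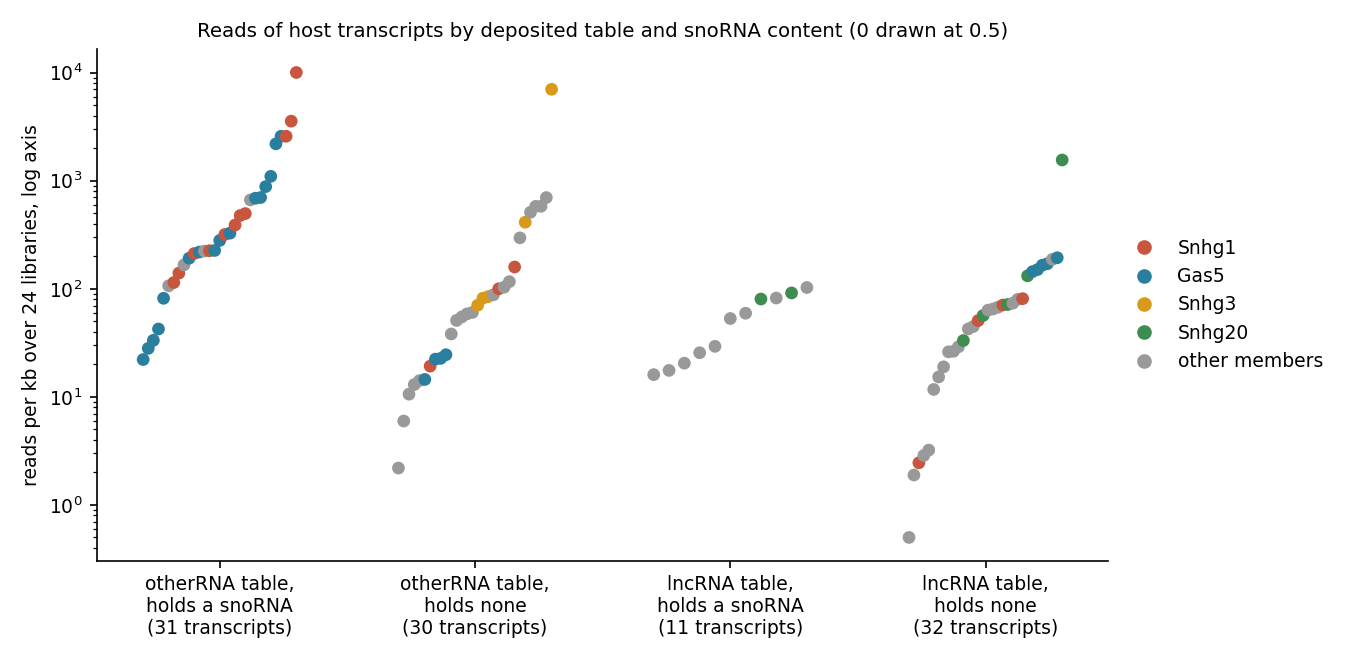
Each point is a member transcript, with its reads per kb over the 24 libraries on a log axis, split by deposited table and by whether its exons hold a whole snoRNA. The highest points are a Snhg1 transcript with 10030 reads per kb, a Snhg3 transcript with 7010 and, in the lncRNA table, a Snhg20 transcript with 1555.

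Snhg1, with 8 snoRNA entries inside it on chromosome 19 (8723475 to 8726443, plus strand), took 22630 reads, 47.7% of the members' total. Its 3 transcripts that hold Snord22, ENSMUST00000206519.1, ENSMUST00000205539.1 and ENSMUST00000206383.1, had 9700, 6054 and 4966 reads. Together they had 20720 reads, 91.6% of the gene's, or 3719 reads per kb. The 8 Snhg1 transcripts with other snoRNAs but not Snord22 had 302 reads per kb, and the 7 with no whole snoRNA had 72.2. Some of the 7 overlap part of a snoRNA, such as ENSMUST00000206255.1 with 76 reads. Reads of Snhg1 were thus counted mostly on entries that hold a whole snoRNA, and those without one had 254 reads, 1.12% of the gene's. The counts give no read positions. Reads of the trimmed snoRNA and of a host RNA that still holds it cannot be told apart here.

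Gas5 (chromosome 1, 161034422 to 161038539, plus strand), with 10 snoRNA entries inside it, took 9577 reads, 20.2% of the members' total. Its transcripts with a snoRNA held 95.2% of them. The 2 transcripts that hold Gm22489 had 4810 reads, 50.2% of the gene's, and the transcript that holds Snord80, which is annotated as 2 overlapping entries, had 1982 reads (20.7%). The 9 transcripts without a whole snoRNA had 458 reads, 4.78% of the gene's, or 91.9 reads per kb.

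Shares on transcripts that hold a snoRNA were also high in Snhg8 (95.7%), Snhg17 (94.997%) and Snhg12 (92.1%), but 20.9% in Snhg20, 5.62% in Snhg14 and 0% in Snhg3, Snhg7os, Snhg18, Snhg6, Snhg9 and Snhg10. Snhg3, the host of the U17 snoRNAs Snora73a and Snora73b that act in ribosomal RNA processing, had 4313 reads, and 94.4% lay on ENSMUST00000141090.7 alone. The exons of that transcript contain no whole snoRNA but cover 159 of the 205 bases of Snora73a and 0 of Snora73b. Snhg14 had 4771 reads, of which 2588 lay on ENSMUST00000190666.1, a transcript with no snoRNA. Of the 208 snoRNA entries inside Snhg14, 17 had any read and together they had 43. The treatment of reads that match several entries is unknown here, so these low counts do not show that the snoRNAs were absent. The 39 snoRNA entries inside the other named hosts, Snhg5, Snhg11 and Snhg15 included, all had reads, 60266 in total.

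The own entries of the snoRNAs stood in varied proportion to their hosts. Snora73b had 13271 reads, 3.08 for each read of Snhg3. Snord22 had 6031 reads, 0.267 for each read of Snhg1. Snord99 had 6537 reads, 19.1 for each read of its host Snhg12, and Snord123 had 4701, 16.9 for each read of Snhg18. Snora78 had 20.1 reads for each read of Snhg9, and the scaRNA Scarna13, a guide RNA of Cajal bodies, 18.3 for each read of Snhg10. Thus Snhg12 and Snhg18, with 342 and 278 reads, held snoRNAs among the most read. Snora78 and Scarna13 had 2132 and 1279 reads. Other hosts with few reads held less read snoRNAs. Snhg8 had 538 reads beside 336 of Snora24, and Snhg6 had 145 beside 563 of Snord87. The snoRNA-holding transcripts of Snhg12 lie in the lncRNA table and those of Snhg1 in the otherRNA table. Whether that placement moves the counts was not tested.

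**Figure D2:**
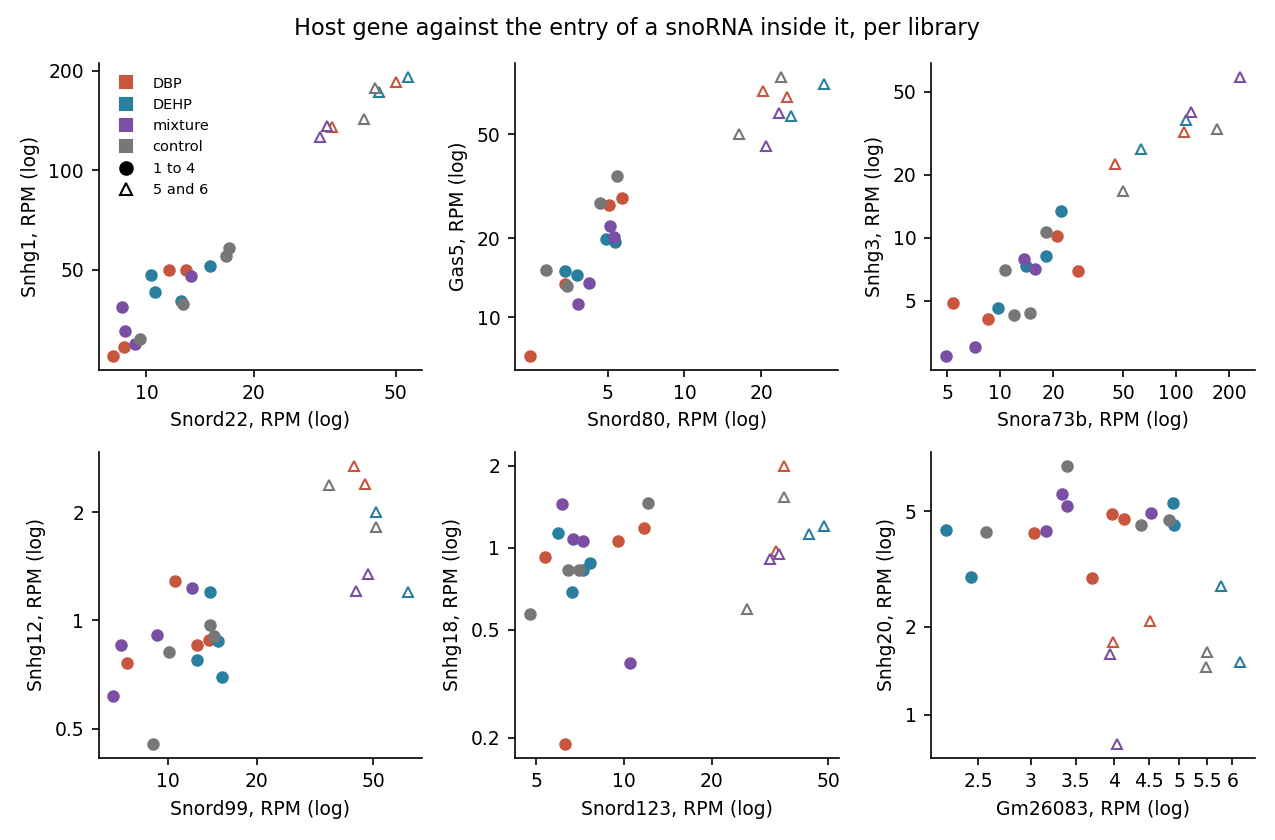
Each panel sets a host gene's RPM (vertical, log axis) against the RPM of a snoRNA entry inside it (horizontal, log axis) in 24 libraries, with open triangles for libraries 5 and 6. Snhg1 had 3.11 to 4.68 reads for each read of Snord22 in every library, whereas the Snhg20 values of libraries 5 and 6 lie below all others.

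The size of these ratios varied little for Snhg1 and more for other hosts. For each read of Snord22, Snhg1 had 3.503 to 4.24 reads in libraries 5 and 6 of the 4 groups and 3.11 to 4.68 in libraries 1 to 4. For each read of the more read Snord80 entry (3000 reads), Gas5 had 2.16 to 3.60 reads in libraries 5 and 6 and 2.89 to 6.39 in libraries 1 to 4. The overlapping second entry, with 2918 reads, is not in this ratio. How reads were shared between these entries is unknown here, so the size of the Gas5 ratio is uncertain. Host and snoRNA counts come from the same libraries and overlap in sequence, so the ratio is a description of these counts.

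For levels per kb, the reads per kb of each transcript were summed over a gene's transcripts, unlike the pooled reads per kb above. Snhg1 had 18 transcripts, Gas5 25 and Snhg3 5, and the order may differ where lengths are pooled. By this sum, the order of median levels over the 24 libraries was Snhg1 at 41.3 reads per kb and M reads (RPKM), Gas5 at 27.8, Snhg3 at 14.4, Snhg20 at 8.89 and Snhg14 at 7.65. Below them came Snhg8 at 2.58, Snhg7os at 2.18, Snhg9 at 1.90, Snhg17 at 1.83, Snhg12 at 1.02, Snhg6 at 0.914, Snhg18 at 0.648 and Snhg10 at 0.412. The ranges over libraries were wide (21.3 to 169 RPKM for Snhg1, 7.81 to 87.4 for Gas5 and 5.08 to 102.5 for Snhg3), and neighbours in this order overlapped in range except Snhg14 (4.14 to 11.5 RPKM) and Snhg8 (0.612 to 4.07). Snhg10 had 0 reads in 1 control library, where 3 reads would be 0.198 to 0.361 RPM over the range of library totals, a limit that covers counting error only. All other members had reads in every library.

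Libraries 5 and 6 of every group stood apart from libraries 1 to 4 for part of the members. The summed level was 248 to 342 RPM in those 8 libraries and 61.6 to 146 RPM in the other 16. Snhg1 ran from 126 to 191 RPM in them and from 27.5 to 57.96 RPM in the others, Gas5 from 45.2 to 82.6 and from 7.12 to 34.8 RPM, and Snhg3 from 16.8 to 58.8 and from 2.72 to 13.5 RPM. Snhg20 ran the other way, from 0.792 to 2.77 RPM in libraries 5 and 6 and from 2.94 to 7.18 RPM in the others. The other 9 members overlapped between the 2 sets. Over all 15171 features with at least 100 reads, 3.38% were higher in every one of libraries 5 and 6 than in any other library and 0.547% were lower, beside 3 and 1 of the 12 members with as many reads. The labels name no batch for libraries 5 and 6, and these sets were seen in the counts, so no test was made of them.

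**Figure D3:**
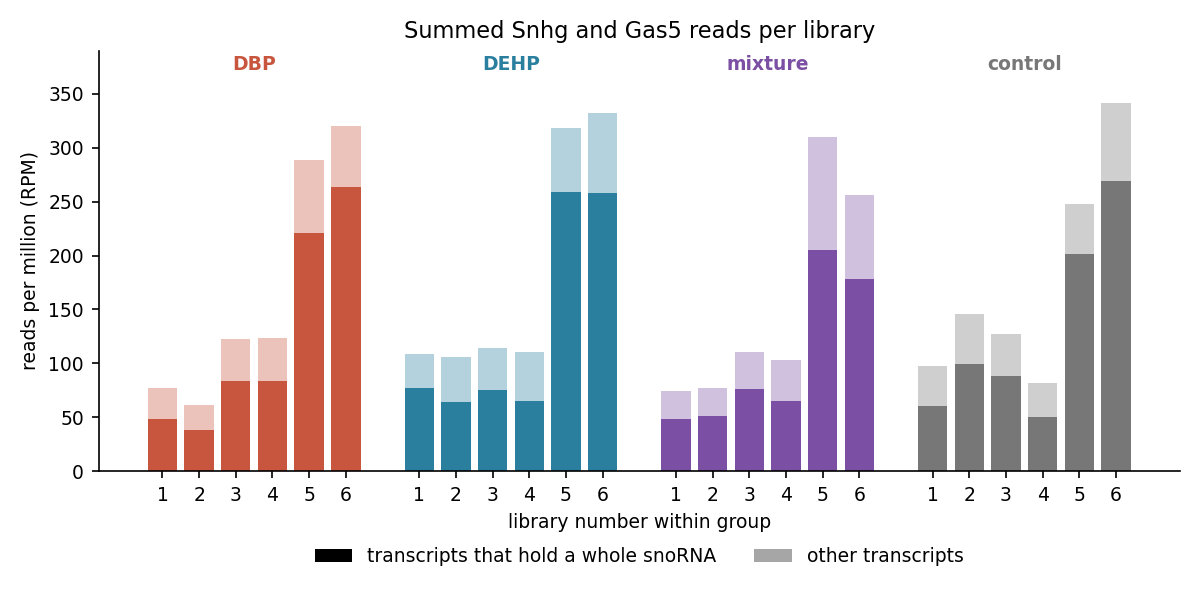
Bars give the summed RPM of the 13 members in each library of the DBP, DEHP, mixture and control groups, with the dark part on transcripts that hold a whole snoRNA and the light part on other transcripts. Libraries 5 and 6 stand at 248 to 342 RPM in all groups, and libraries 1 to 4 at 61.6 to 146 RPM.

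Of the 26 snoRNA entries with at least 100 reads, 13 were higher in every one of libraries 5 and 6 than in any other library (3.38% of all features with as many reads), 0 were lower in every one (0.547%) and 13 overlapped. Many of these entries share a host, and Snord80 and Snora16a each have a pair of overlapping entries, so the 26 are not independent. Snora73b was at 44.7 to 230.5 RPM in libraries 5 and 6 and at 4.92 to 27.7 RPM in the others, and Snord99 at 35.2 to 65.3 and at 6.50 to 15.3 RPM. Rmrp, the RNA of RNase MRP, which cuts precursor ribosomal RNA, was at 282 to 384 RPM and at 40.6 to 113 RPM. By contrast the nuclear lncRNAs Malat1 (97.8 to 167 and 93.2 to 186 RPM) and Neat1 (109.6 to 130 and 97.7 to 199 RPM) overlapped. Member reads in the lncRNA table, per M reads of the 6 tables other than otherRNA, ran from 7.28 to 12.1 in libraries 5 and 6 and from 7.71 to 14.8 in the others, so that part overlapped. The otherRNA share of all reads was 3.94 to 4.56% in libraries 5 and 6 and 2.48 to 3.70% in the others. The part of the otherRNA share in these differences was not tested.

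Snhg20 differed in libraries 5 and 6 through a single transcript, ENSMUST00000233685.1, which had 605 of the gene's 1027 reads. It had 0 to 5 reads in each of libraries 5 and 6 and 14 to 66 in each other library. Its first exon (chr11:117076464-117076577, plus strand, 114 bases) overlaps no exon of another Snhg20 transcript and its sequence is found whole in 0 other transcripts of the release. It is shown in capitals, with the first 16 bases of the second exon in lower case.
ENSMUST00000233685.1: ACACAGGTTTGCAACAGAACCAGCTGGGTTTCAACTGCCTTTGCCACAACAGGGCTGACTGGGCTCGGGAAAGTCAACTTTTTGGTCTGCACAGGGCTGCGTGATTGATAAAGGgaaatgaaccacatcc

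Muscle miRNAs (mmu-miR-143-3p and mmu-miR-145a-5p, 2 of a list of 5 smooth muscle markers) summed to 9.06 to 26.9 RPM in libraries 5 and 6 and 4.75 to 33.6 RPM in the others. Blood miRNAs (4 of 6 markers) summed to 0.0801 to 0.372 and 0.0756 to 0.786 RPM, and the liver miRNA mmu-miR-122-5p to 0 to 0.120 and 0 to 0.431 RPM. These lists overlapped between the sets and between the groups. Messenger RNA markers of sperm, epididymal epithelium and vesicles (15 in all) were not analysed here, so the labelled source was not checked against them.

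The comparisons of DBP, DEHP and their mixture with control asked whether exposure altered the member RNAs in vesicles. Summed member levels were 165.8 ± 110.6 RPM after DBP, 182 ± 111 after DEHP, 155 ± 101.5 after the mixture and 174 ± 101 in controls (SD, n = 6 each). The lowest, median and highest library stood at 61.6, 123 and 319.9 RPM after DBP, 106, 112 and 332 RPM after DEHP, 74.8, 107 and 310.4 RPM after the mixture, and 81.8, 137 and 342 RPM in controls. The 4 groups overlapped over most of their range. Without libraries 5 and 6 the means were 96.4 RPM after DBP, 109.9 after DEHP, 91.5 after the mixture and 113 in controls.

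Of the 13 members, 10 passed the filter on low counts and were tested among 10685 features with edgeR's quasi-likelihood test (two-sided, Benjamini-Hochberg adjustment over all features). Snhg6, Snhg9 and Snhg10 did not pass, at 145, 106 and 70 reads in all. At adjusted p under 0.05, edgeR called 0 of the 10 members after DBP (0% of all features called), 0 after DEHP (0%) and 0 after the mixture (0%), and DESeq2 and limma voom also called 0. At unadjusted p under 0.05, edgeR had 1 member lower after DBP, where 4.78% of all features passed (2.22% lower, 2.56% higher), 0 after DEHP (2.72%) and 0 after the mixture (2.63%, with 1.57% lower). DESeq2 had 1, 0 and 0 members in the same comparisons (4.81%, 2.62% and 2.34% of features), and voom 0, 0 and 0 (6.92%, 4.08% and 4.01%). A share of 1 in 10 and 0 in 10 is near this background. The median log2 fold change of the 10 members was -0.10 after DBP, -0.01 after DEHP and -0.08 for the mixture, against -0.00, -0.02 and -0.02 over all features. Members with a negative value numbered 6, 5 and 8 of 10, against 5396, 5690 and 5823 of 10685 features.

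**Figure D4:**
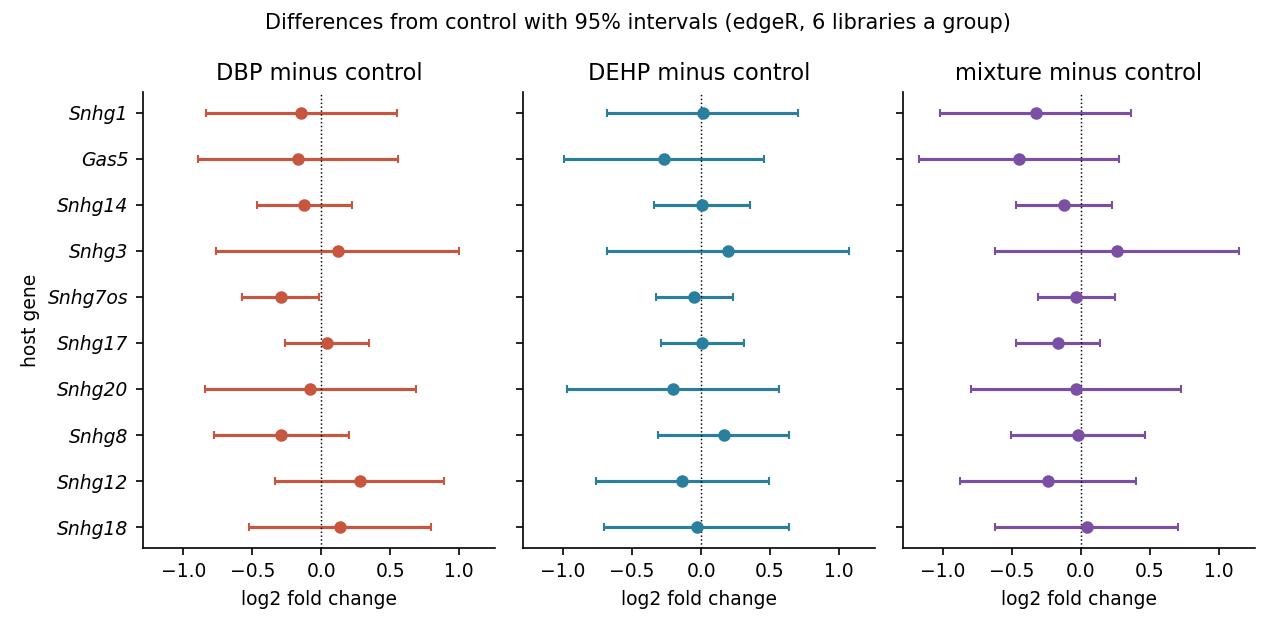
Points are edgeR log2 fold changes of the 10 tested members after DBP, DEHP or the mixture, each minus control, and bars are 95% intervals. All intervals contain 0 except that of Snhg7os after DBP (-0.58 to -0.01).

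Snhg7os was the member with an unadjusted p under 0.05. It is annotated as an antisense gene on chromosome 2 with 0 snoRNA entries inside it, so it is not itself a host by position. Of its 2068 reads, 2015 lay on ENSMUST00000131841.7. Scaled to TMM-adjusted totals (CPM), the lowest, median and highest library had 5.08, 6.31 and 7.05 CPM after DBP, against 6.41, 7.63 and 8.92 CPM in controls. The libraries of the groups overlapped between 6.41 and 7.05 CPM. The log2 fold change was -0.30 ± 0.14 (SE; 95% interval -0.58 to -0.01), with an adjusted p of 0.961 in edgeR's quasi-likelihood test. After DEHP it was -0.05 ± 0.14 (6.30, 7.24 and 8.63 CPM) and after the mixture -0.03 ± 0.14 (5.58, 7.11 and 10.6 CPM). For DBP it was -0.38 ± 0.22 on lane 6 and -0.22 ± 0.21 on lane 7 (SE). The unadjusted p no longer passed with library totals, without the lane term, with voom or with a replicate block. The sources used here do not give the counting strand, so reads of Snhg7os cannot be told apart from those of a gene on the other strand.

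Snhg1 was at 27.5, 49.9 and 184.5 RPM (lowest, median and highest library) after DBP, 40.3, 49.6 and 191 RPM after DEHP, 29.9, 43.2 and 136.5 RPM after the mixture, and 30.9, 56.5 and 177 RPM in controls. Its groups overlapped, with libraries 5 and 6 at the top of each. Log2 fold changes were -0.15 ± 0.34 (SE) after DBP, 0.01 ± 0.34 after DEHP and -0.33 ± 0.34 for the mixture. The interval of the last ran from -1.02 to 0.36.

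Gas5 was at 7.12, 27.7 and 73.4 RPM after DBP, 14.6, 19.7 and 77.9 RPM after DEHP, 11.2, 21.3 and 60.1 RPM after the mixture, and 13.2, 31.1 and 82.6 RPM in controls. Log2 fold changes were -0.17 ± 0.35, -0.27 ± 0.35 and -0.45 ± 0.35 (SE) after DBP, DEHP and the mixture. The smallest edgeR p of the 3 was 0.212 for the mixture (adjusted p = 1.00). By lane the mixture value was -0.60 on lane 6 and -0.22 on lane 7, and that of DBP -0.48 and 0.15.

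Snhg14 was at 9.59, 15.3 and 21.9 RPM after DBP, 13.7, 18.6 and 20.8 RPM after DEHP, 8.17, 14.98 and 28.2 RPM after the mixture, and 11.2, 17.1 and 23.7 RPM in controls. Its log2 fold changes were -0.12 ± 0.17, 0.01 ± 0.17 and -0.12 ± 0.17 (SE), with intervals from -0.47 to 0.22, -0.34 to 0.35 and -0.47 to 0.22, narrower than those of Snhg1, Gas5 and Snhg3. By lane the mixture value was -0.49 ± 0.24 on lane 6 and 0.28 ± 0.24 on lane 7 (SE), and both intervals contained 0. Of its 15 transcripts 14 are annotated as antisense, and the limit on strand given for Snhg7os holds for it and for Snhg9 too.

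Snhg3 was at 4.06, 8.57 and 32.2 RPM after DBP, 4.62, 10.9 and 36.7 RPM after DEHP, 2.72, 7.53 and 58.8 RPM after the mixture, and 4.26, 8.87 and 33.1 RPM in controls. Its log2 fold changes were 0.12 ± 0.43, 0.20 ± 0.43 and 0.26 ± 0.43 (SE). The mixture value rested on libraries 5 and 6 and was -0.38 ± 0.38 without them. Snhg17, with 3 snoRNA entries that had 135 reads in all, had log2 fold changes of 0.04 ± 0.15, 0.01 ± 0.15 and -0.16 ± 0.15 (SE). It stood at 3.04, 5.38 and 8.504 RPM after DBP, 4.39, 5.98 and 7.06 RPM after DEHP, 3.43, 5.14 and 6.81 RPM after the mixture, and 4.38, 5.63 and 6.05 RPM in controls.

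**Figure D5:**
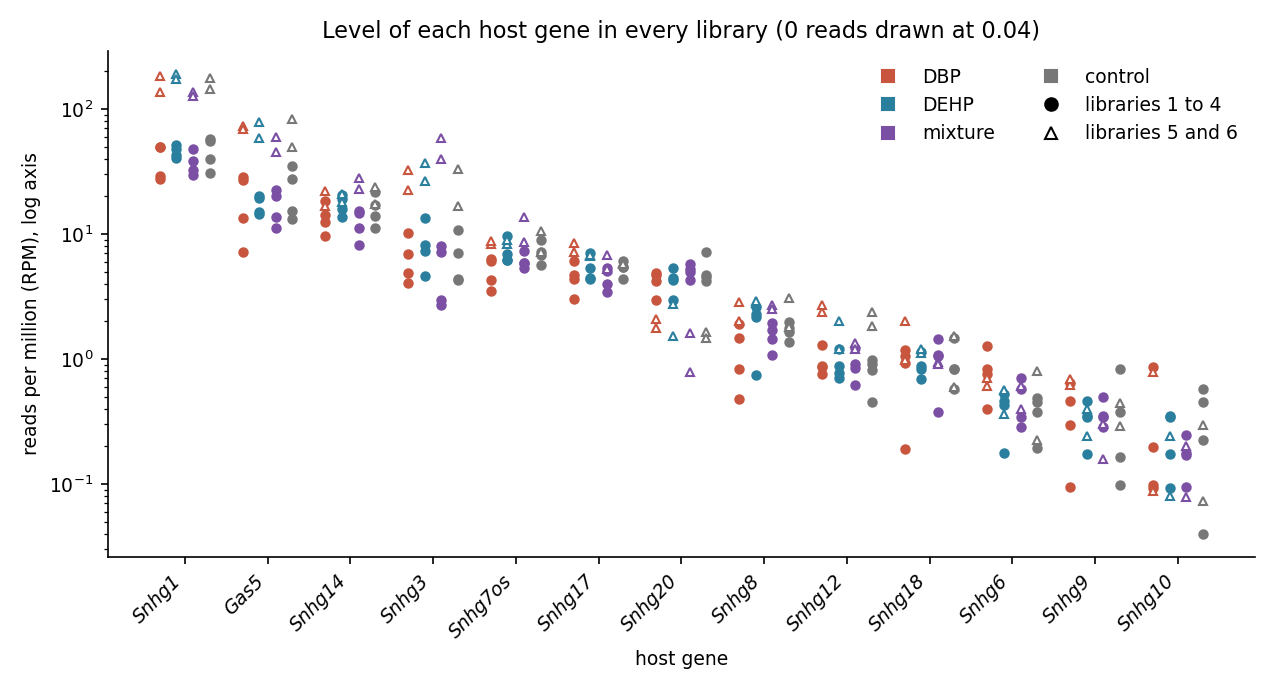
Each point is a library's RPM of a member gene on a log axis, with filled circles for libraries 1 to 4, open triangles for libraries 5 and 6, and the groups side by side as DBP, DEHP, mixture and control. For Snhg1, Gas5 and Snhg3 all triangles lie above the circles and for Snhg20 below them, while the groups overlap for every gene.

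Libraries 5 and 6 had been set apart by these same counts. With a term for them beside lane, the errors of Snhg1, Gas5, Snhg3, Snhg20 and Snhg12 shrank. Those of Snhg14, Snhg7os, Snhg17, Snhg8 and Snhg18 hardly changed. Snhg1 then had log2 fold changes of -0.10 ± 0.17 after DBP, 0.02 ± 0.16 after DEHP and -0.29 ± 0.17 for the mixture (SE; edgeR adjusted p = 1 and 95% interval -0.63 to 0.05 for the last). Gas5 had -0.11 ± 0.24, -0.28 ± 0.23 and -0.39 ± 0.24 (edgeR adjusted p = 1 and 95% interval -0.88 to 0.09 for the last). Called features numbered 0 in these 3 comparisons.

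The 4 less read members that were tested, Snhg20, Snhg8, Snhg12 and Snhg18, had log2 fold changes from -0.29 to 0.28 after DBP, -0.20 to 0.16 after DEHP and -0.24 to 0.04 after the mixture. Snhg8, the host of Snora24, stood at 0.475, 1.69 and 2.84 RPM after DBP, 0.739, 2.43 and 2.89 RPM after DEHP, 1.08, 1.82 and 2.69 RPM after the mixture, and 1.36, 1.77 and 3.07 RPM in controls. Snhg12 stood at 0.760, 1.09 and 2.699 RPM after DBP, 0.697, 1.04 and 2.001 RPM after DEHP, 0.615, 1.06 and 1.35 RPM after the mixture, and 0.453, 0.940 and 2.38 RPM in controls. The groups overlapped for both genes.

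Between exposures edgeR called 0 of 10 members at adjusted p under 0.05 for DBP minus DEHP, the mixture minus DBP, the mixture minus DEHP and the interaction of DBP and DEHP, with 0% of all features called in each. At unadjusted p under 0.05 members numbered 0 in each, where 3.62%, 4.35%, 3.15% and 4.13% of all features passed. DESeq2 had 1 member at unadjusted p under 0.05 for the mixture minus DBP and 0 in the other 3 (3.39%, 3.95%, 2.68% and 3.83% of features in the same order), and voom had 0 in all 4 (3.73%, 5.08%, 4.06% and 6.19%). The smallest edgeR p was 0.0674, for Snhg7os in the mixture minus DBP. The interaction of Gas5 was -0.01 ± 0.499 (SE) and that of Snhg1 -0.19 ± 0.47, with intervals from -1.04 to 1.02 and -1.17 to 0.78. The 3 comparisons with control share the control libraries.

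Of the 247 snoRNA and scaRNA entries inside the 16 named genes, 26 were tested, and edgeR called 0 of them in every comparison at adjusted p under 0.05. At unadjusted p under 0.05, 1 of the 26 passed after DBP (Gm23246 of Snhg1, 0.99 ± 0.43 SE, edgeR adjusted p = 0.961), 0 passed after DEHP and 1 passed after the mixture (Snord47 of Gas5, -1.56 ± 0.66, edgeR adjusted p = 1.00), where 4.78%, 2.72% and 2.63% of all features passed. Gm23246 and Snord47 had 263 and 156 reads over the 24 libraries. Between exposures 0 of the 26 passed for DBP minus DEHP (3.62% of all features). For the mixture minus DBP 2 passed (4.35%), Snora24 of Snhg8 at 0.87 ± 0.35 and Snora61 of Snhg12 at -0.83 ± 0.37. For the mixture minus DEHP 2 passed (3.15%), Snora9 of Snhg15 at -0.72 ± 0.31 and Snora78 of Snhg9 at -0.60 ± 0.26. For the interaction 2 passed (4.13%), Snora9 at -0.94 ± 0.44 and Gm23246 at -1.29 ± 0.62 (all SE). The smallest edgeR adjusted p of these 6 was 0.999, and these snoRNAs were named after their values were seen. The medians over the 26 were -0.11 after DBP, -0.04 after DEHP and -0.13 for the mixture, against -0.00, -0.02 and -0.02 over all features. Snora73b, the most read, had -0.25 ± 0.52, -0.16 ± 0.51 and 0.07 ± 0.52 (SE), and Snord99 -0.01 ± 0.35, 0.25 ± 0.35 and -0.23 ± 0.35. Snord22 had -0.26 ± 0.34, -0.07 ± 0.34 and -0.48 ± 0.34, beside -0.15, 0.01 and -0.33 of its host Snhg1.

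Other lncRNA hosts were set beside them. Of Zfas1, Dancr, Epb41l4aos, Rian, Meg3 and Mir17hg, 5 were tested and 0 passed at unadjusted p under 0.05 in any of the 7 comparisons, and the same held for Rmrp, Malat1 and Neat1. Meg3, an imprinted host of snoRNAs, was the most read of the 6 (5046 reads) with log2 fold changes of 0.20 ± 0.17, 0.11 ± 0.17 and 0.12 ± 0.17 (SE). Dancr, with 1600 reads, was at 6.87 to 10.9 RPM in libraries 5 and 6 and 2.58 to 5.79 RPM in the others. It was the only host of this list without overlap. Of all features with at least 100 reads, 3.38% were higher in every one of libraries 5 and 6. Zfas1 overlapped narrowly, at 4.12 to 8.485 RPM in libraries 5 and 6 and 1.11 to 4.22 RPM in the others. Meg3, Zfas1, Rian, Mir17hg and Epb41l4aos overlapped between these sets of libraries.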

How the data were processed

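Small RNA of cauda epididymal vesicles was sequenced in 24 libraries. The authors deposited read counts per entry in 7 RNA class tables, with entry lengths; per the submitters' processing notes cutadapt, STAR 2.7.6a and edgeR were used. The sources used here do not give the annotation, genome build, strand setting or treatment of multiply mapped reads. Transcripts of the lncRNA and otherRNA tables were matched to GENCODE vM21 and summed per gene. Counts were tested with edgeR 4.0.16 (filterByExpr by group, TMM factors of 0.621 to 1.3, quasi-likelihood test, terms for group and lane, all 24 libraries) over 10685 features in 7 contrasts with Benjamini-Hochberg adjustment, after a test on simulated data. There, of 100 simulated features each after DBP, 36% with a 2-fold and 94% with a 4-fold change were recovered (4 false calls, 10112 features). DESeq2 1.42.0, limma 3.58.1, other scalings, filters, terms, tables and left-out libraries were alternatives. The members and lists were chosen with earlier results of these data known. By rule, the 6 most read members and any with an unadjusted p under 0.05 are given in full. P-values measure the spread between 6 libraries a group, which the labels do not tie to named animals. Counting limits cover counting error only.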

Additional observations from a re-analysis of the deposited data

Results flagged for a closer look

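Of 56 sets of 6 libraries examined (members and their sum within groups), 3 held a library far from the other 5 by Dixon's criterion, where chance gives about 1 in 20. Snhg8 was at 0.739 RPM in DEHP library 1, against 2.18 to 2.89 RPM in the other DEHP libraries. In control library 6, Snhg8 was at 3.07 RPM, against 1.36 to 1.96 RPM in the other controls. Snhg17 was at 4.38 RPM in control library 4, against 5.46 to 6.05 RPM in the other controls. The cause was not tested.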

How the results depend on the processing

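Members called at adjusted p under 0.05 numbered 0 in all 7 comparisons under all 15 settings, of which DESeq2 and voom were 1 each, and with each library left out of the edgeR fit. Without a filter on low counts, features called numbered 79 after DBP, 9 after DEHP, 7 after the mixture, 5 for DBP minus DEHP, 35 for the mixture minus DBP, 11 for the mixture minus DEHP and 34 for the interaction, against 0 with the filter. The 1 member at unadjusted p under 0.05 after DBP became 0 with library totals, with lncRNA and otherRNA genes on their own, with voom, without the lane term, in either lane, with the most read transcript and with a replicate block. It was also 0 in the lncRNA table, where that member, Snhg7os, has no transcript and could not be tested. Replicate numbers were not taken as pairing the libraries (lowest correlation -0.23, for number 2, although all pairs of number 5 lay at 0.316 to 0.626 and of number 6 at 0.312 to 0.626, and 3 of 24 libraries correlated best with their own number), and the block gave 0 called features in every comparison. The number of members at unadjusted p under 0.05 became 1 in place of 0 for the mixture minus DBP with DESeq2 or its size factors. It did so too for DBP minus DEHP with no filter, and for the mixture minus control with the most read transcript. Leaving out a library gave 0 to 1.

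Of 255 log2 fold changes of the 6 most read members, 31 changed sign. After DBP they were Snhg17 with library totals (-0.0092), without libraries 5 and 6 (-0.13), in lane 6 (-0.21) and in the lncRNA table (-0.0923), Snhg14 in lane 7 (0.0099), and Gas5 in lane 7 (0.15), in the lncRNA table (0.17) and without snoRNA-holding transcripts (0.17). After DEHP they were Snhg7os with library totals (0.0019), Snhg14 with voom (-0.0399), in lane 6 (-0.0794) and by most read transcript (-0.0714), Snhg1 without libraries 5 and 6 (-0.0494), in lane 6 (-0.14) and without snoRNA-holding transcripts (-0.27), Snhg17 in the same first 2 settings (-0.0616 and -0.10) and by most read transcript (-0.0143), and Gas5 in lane 7 (0.0092), in the lncRNA table (0.27) and without snoRNA-holding transcripts (0.26). After the mixture they were Snhg7os with lncRNA and otherRNA genes on their own (0.0132), no filter (0.0167), DESeq2 (0.0048) and lane 7 (0.17), Snhg3 with voom (-0.0632), without libraries 5 and 6 (-0.38) and in lane 6 (-0.42), Snhg14 in lane 7 (0.28), and Snhg17 in lane 7 (0.0316) and the lncRNA table (0.0111). Leaving out a library changed the sign of Snhg3 (-0.0805 to 0.46) and Snhg17 (-0.0247 to 0.10) after DBP, of Snhg1 (-0.17 to 0.18), Snhg14 (-0.0750 to 0.11), Snhg17 (-0.0957 to 0.0897) and Snhg7os (-0.12 to 0.0313) after DEHP, and of Snhg14 (-0.21 to 0.0045), Snhg3 (-0.0589 to 0.58) and Snhg7os (-0.14 to 0.0592) after the mixture. The cause was not tested.

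The summed level in the lncRNA table alone was 10.5 RPM after DBP, 10.3 after DEHP, 9.71 after the mixture and 10.3 in controls, and without snoRNA-holding transcripts 42.5, 48.6, 51.4 and 45.2 RPM. Snhg6, Snhg9 and Snhg10 had too few reads for a test.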

Other observations

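RefSeq names on GRCm38.p6 place further host names in these tables. The locus of AC121821.1, which RefSeq names Snhg4 and which is no member by its GENCODE name, had 559474 reads, against 47404 of all 13 members. It was at 512 to 847 RPM in libraries 5 and 6 and at 1537 to 4609 RPM in the others, the opposite order to Snhg1, Gas5 and Snhg3. The locus of 1810032O08Rik, which RefSeq names Snhg16, had 392 reads.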
